A study of Mus musculus with 18 samples.

Results

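Esrrb and 7 further nuclear receptor genes, Esrra, Esrrg, Nr0b1, Nr5a2, Nr6a1, Nr2f2 and Nr2f1, were followed through all 18 RNA sequencing samples of the study. The genes were chosen by symbol, as Esrrb, its paralogues and nuclear receptors of pluripotent cells, and the rule itself used no measured value. They and all lists below were chosen with earlier results of these data known, so the shares called among them are descriptions. All 8 were found among the 49671 genes of the count table. The samples were mouse ES cells embedded in growth factor-depleted Matrigel in N2B27 medium, with 3 samples in each of 6 groups, and all lines had been kept in 2i/Lif on gelatine beforehand. Wild-type E14 cells (strain 12910la, passage 20) were grown in 3D for 48 h in 4 conditions. These were DMSO, the solvent control, CH, which is the Gsk3 inhibitor CHIR99021 at 3 µM and activates Wnt/β-catenin signalling, 2i, which is CH at 3 µM with the Mek inhibitor PD0325901 at 0.4 µM, and Fgf2 at 12 ng/ml with Activin A at 20 ng/ml. Esrrb fl/fl cells at passage 25, with the strain labelled as Acr-EGFP transgenic mice, expressed the tamoxifen-inducible Cre recombinase MerCreMer and were grown in 3D with CH at 3 µM for 24 h. Esrrb null samples had received 4OHT for 1 day before the 3D culture, and Esrrb floxed samples had not. Both therefore carried the floxed alleles, the Cre transgene and CH, and the effect of 4OHT or of active Cre cannot be told apart from that of the deletion. Wild-type cultures were 1 line and the Esrrb fl/fl cultures another, differing in passage and culture time, so no test was made between them. The study states in general that its experiments were reproduced independently at least 3 times. Neither that nor the labels says that same-group samples were separate cultures. The p-values therefore measure the spread between these samples, which may be technical.

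Nuclear receptors are transcription factors with a conserved DNA-binding domain and, in most, a ligand-binding domain. The oestrogen-related receptors Esrra, Esrrb and Esrrg are orphan receptors that bind the motif AGGTCA preceded by a short extension. Esrra and Esrrg are best known for control of mitochondrial genes, whereas Esrrb belongs to the naive pluripotency network, where it can be induced after Gsk3 inhibition relieves repression by Tcf7l1. Nr5a2 is an orphan receptor that binds related motifs and can activate Pou5f1, and Nr0b1 is an atypical receptor without the usual DNA-binding domain that acts mainly as a corepressor. Nr6a1 represses Pou5f1 during differentiation, and Nr2f1 and Nr2f2 are the COUP transcription factors of many differentiating tissues.

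The libraries held 25388139 to 37158661 counts in the wild-type cultures and 19915222 to 20140699 in the Esrrb fl/fl cultures. All 8 markers of pluripotent cells were at a mean of at least 1 CPM in every group, CPM being counts scaled to a common library total after TMM normalisation. Replicate 1 stood apart from replicates 2 and 3 in all 6 groups. The chi-square per gene between counts of pairs with replicate 1 was 27.0 to 59.7 in the wild-type and 10.8 to 14.0 in the Esrrb fl/fl cultures, against 2.68 to 7.84 and 1.42 to 2.097 for the pairs of replicates 2 and 3. Each comparison was therefore also fitted with replicates 2 and 3 alone, an alternative chosen after seeing the data. It gave the same number of calls among the 8 genes in 6 of the 7 comparisons, and 1 in place of 0 between 2i and CH. Changes are given as log2 fold changes with standard errors. A gene was called where edgeR's quasi-likelihood test, adjusted by Benjamini-Hochberg over all genes tested, gave an adjusted p under 0.01 and the log2 fold change exceeded 1 in size. The 6 comparisons between wild-type groups share samples and are not independent of each other.

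The receptors fell into 4 patterns. Esrrb, Nr0b1 and Nr5a2 were high in CH and in 2i and low in DMSO and Fgf2/Activin, and Nr6a1 was lowest in 2i. Esrra lay within a narrow range in all groups, and Esrrg, Nr2f2 and Nr2f1 were at or near the limit of detection in most samples. Between CH and DMSO, 5 of the 8 genes passed the filter on low counts and 3 were called, all higher in CH, while 17.7% of all 16413 genes tested were called. Between 2i and Fgf2/Activin, 3 were called higher and 1 lower in 2i, against 23.5% of all genes. The same numbers, 3 higher and 1 lower, were called between 2i and DMSO, where 22.3% of all genes were called. Between CH and Fgf2/Activin, 3 were called higher in CH, against 18.2%. The summed markers of primitive streak and mesoderm moved with these groups. They were at 462 to 695 CPM in CH and 87.0 to 120 CPM in 2i, mostly from T at means of 534 and 91.0 CPM. They were at 10.3 to 14.97 CPM in DMSO and 13.1 to 19.1 CPM in Fgf2/Activin. Eomes, a marker of the same list, was lower in 2i, at 3.82 CPM, than in DMSO and Fgf2/Activin, at 11.45 and 14.3 CPM. Of the 8 markers, 5 had a mean of at least 1 CPM in CH, 3 in 2i, 1 in DMSO and 2 in Fgf2/Activin. The part of these markers in the results was not tested.

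**Figure D1:**
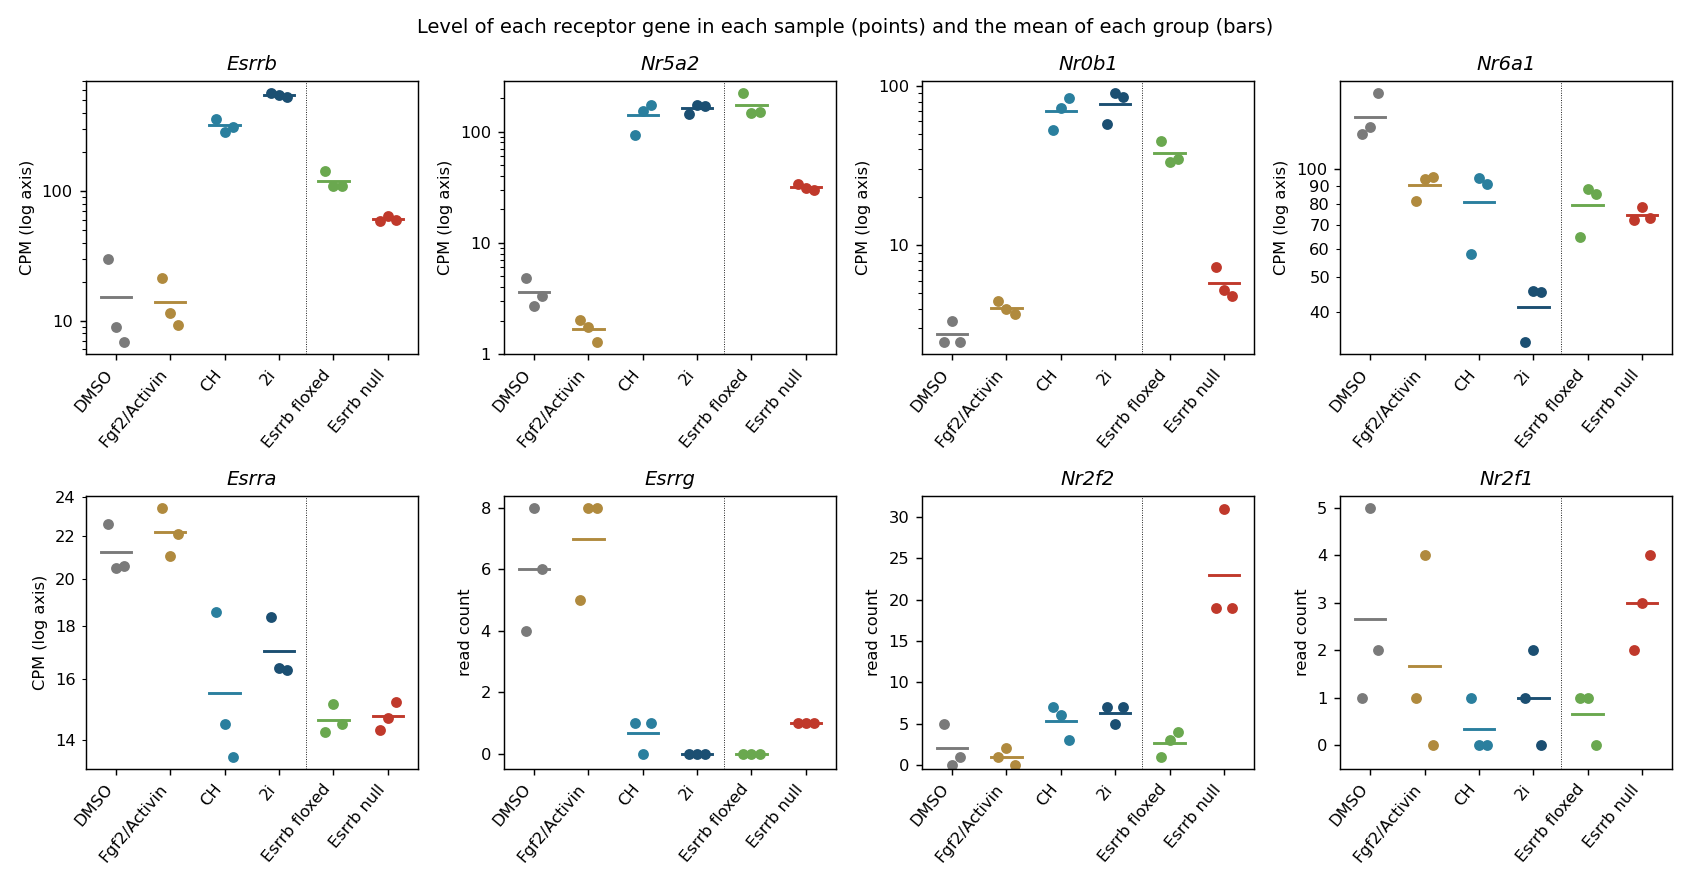
Level of the 8 receptor genes in each sample, as CPM on a log axis for 5 genes and as read counts for Esrrg, Nr2f2 and Nr2f1, which have low counts. Points are samples, bars are means of 3 samples per group, and the dotted line separates the wild-type from the Esrrb fl/fl cultures. Esrrb, Nr5a2 and Nr0b1 are high in CH and 2i, and the Esrrb null samples lie below the Esrrb floxed ones for all 3.

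Esrrb (ENSMUSG00000021255) lies on chromosome 12 at 86361117 to 86521628 of GRCm38, on the plus strand. In DMSO it had 30.2, 8.98 and 6.87 CPM in replicates 1, 2 and 3, and in Fgf2/Activin 21.4, 11.5 and 9.21 CPM. In CH the values were 363, 286 and 314 CPM, and in 2i they were 566, 552 and 530 CPM. The groups with and without CH did not overlap, and replicate 1 was the highest in all 4 conditions. The rise was 4.37 on the log2 scale between CH and DMSO (SE 0.51, adjusted p = 5.81e-05) and 5.29 between 2i and Fgf2/Activin (SE 0.54, adjusted p = 1.26e-05) in edgeR's quasi-likelihood test. Without DMSO replicate 1, which had 1131 Esrrb counts against 287 and 178 in the other two, the first value was 5.33, and with replicates 2 and 3 alone it was 5.23.

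Every 2i sample had more Esrrb than every CH sample, with means of 550 ± 17.9 and 321 ± 38.6 CPM (SD, n = 3 each). The fitted difference of 0.78 (95% interval -0.20 to 1.75, adjusted p = 0.396 by edgeR's quasi-likelihood test) did not pass the threshold. With replicates 2 and 3 alone it was 0.85, with an adjusted p of 8.05e-07 in edgeR's quasi-likelihood test, still under the minimum fold change (adjusted p up to 0.619 over all alternatives). DMSO and Fgf2/Activin overlapped, at 15.3 ± 12.9 and 14.0 ± 6.49 CPM (SD, n = 3 each). Their difference of -0.14 had an interval of -1.17 to 0.89, and it turned to 0.82 without DMSO replicate 1 and to 0.38 with replicates 2 and 3 alone. From the highest level to the lowest the wild-type order was 2i, CH, DMSO and Fgf2/Activin, in which only the step from CH to DMSO passed the threshold.

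In Esrrb floxed samples the gene had 142, 110 and 109 CPM, and in Esrrb null samples 58.9, 63.8 and 59.8 CPM. These groups did not overlap, and the null samples had 1211 to 1333 Esrrb counts each. The difference was -0.99 on the log2 scale (SE 0.10, adjusted p = 7.44e-05 by edgeR's quasi-likelihood test), a 1.98-fold lower level that missed the minimum fold change for a call. Without Esrrb null replicate 2, Esrrb floxed replicate 2 or Esrrb floxed replicate 3 the change was -1.03, -1.06 and -1.06, past that minimum, and DESeq2 also called it, at -1.001. The count is made over the whole gene and includes transcripts that lack only the deleted part. Which exons were deleted is not given in the sources used here, so the value checks the direction of the labels and not the extent of the deletion.

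Nr0b1 (ENSMUSG00000025056), the corepressor, lies on the X chromosome at 86191764 to 86195947, on the plus strand. It had 2.48, 3.32 and 2.47 CPM in DMSO and 4.48, 3.98 and 3.72 CPM in Fgf2/Activin. In CH it had 52.7, 73.1 and 83.7 CPM, and in 2i 57.7, 90.0 and 85.1 CPM. Both CH-containing groups were above every sample without CH, and overlapped each other. The rise between CH and DMSO was 4.66 (SE 0.24, adjusted p = 1.59e-07) and that between 2i and Fgf2/Activin 4.25 (SE 0.23, adjusted p = 1.33e-07, edgeR's quasi-likelihood test). Between 2i and CH the difference was 0.15 with an interval of -0.28 to 0.58. Every Fgf2/Activin sample was above every DMSO sample, and this difference of 0.56 did not pass adjustment (adjusted p = 0.242, edgeR's quasi-likelihood test).

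Nr5a2 (ENSMUSG00000026398), the activator of Pou5f1, lies on chromosome 1 at 136842571 to 136960448, on the minus strand. It had 4.80, 2.72 and 3.36 CPM in DMSO and 2.02, 1.74 and 1.29 CPM in Fgf2/Activin, against 94.0, 154 and 173 CPM in CH and 145, 172 and 171 CPM in 2i. The samples with CH were again all above those without it. Its changes were the largest among the 8 genes in these comparisons, at 5.26 between CH and DMSO (SE 0.28, adjusted p = 2.12e-07) and 6.58 between 2i and Fgf2/Activin (SE 0.30, adjusted p = 4.71e-08, edgeR's quasi-likelihood test). Between 2i and CH it differed by 0.21, with an interval of -0.28 to 0.71. Fgf2/Activin samples were all below the DMSO samples. That difference of -1.11 missed the threshold in edgeR's quasi-likelihood test (adjusted p = 0.0584) and passed it in DESeq2 (-1.10, adjusted p = 0.00331), with adjusted p from 0.00155 to 0.218 over the alternatives.

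Of the 8 genes, Nr0b1 and Nr5a2 also had the largest falls in Esrrb null samples. Nr0b1 had 45.5, 33.4 and 34.7 CPM in Esrrb floxed and 7.30, 5.26 and 4.78 CPM in Esrrb null samples, and Nr5a2 had 220, 148 and 151 CPM against 34.1, 31.2 and 29.6 CPM. Neither gene had overlapping groups. Nr0b1 fell by 2.71 (SE 0.18, adjusted p = 8.53e-06) and Nr5a2 fell by 2.45 on the log2 scale (SE 0.15, adjusted p = 6.77e-06, edgeR's quasi-likelihood test), or 6.54-fold and 5.46-fold. The Esrrb null samples, which were in CH, had Nr0b1 and Nr5a2 at means of 5.78 and 31.6 CPM, beside 2.76 and 3.63 CPM in wild-type cells in DMSO, values from different lines and times that were not tested against each other. The 8 markers of pluripotent cells were lower too, at a summed 2503 to 2825 CPM in null against 4315 to 4386 CPM in floxed samples, and their part in these falls was not tested. With Nr2f2 higher, 3 of the 6 genes tested were called in this comparison, against 16.7% of 14893 genes. Nr2f2 passed the filter on low counts only through the null samples, where it was high, so its call is a description. Of all 14893 genes, 12.8% were called higher and 3.87% lower.

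The sequences before the starts of these 3 genes were read because the genes moved together. RefSeq promoter windows of GRCm38.p6, of 250 bases up to the start, were found for all 8 genes, 15 windows in total. Both strands were searched for AGGTCA and the longer forms AAGGTCA and TCAAGGTCA, which contain it, and for the TCF forms CTTTGAT and CTTTGAA. The Nr0b1 window (chrX:86191525-86191774, plus strand), the first Nr5a2 window (chr1:136960449-136960698, minus strand) and the first Esrrb window (chr12:86360867-86361116, plus strand) are shown 5′ to 3′, with AGGTCA in capitals.
Nr0b1: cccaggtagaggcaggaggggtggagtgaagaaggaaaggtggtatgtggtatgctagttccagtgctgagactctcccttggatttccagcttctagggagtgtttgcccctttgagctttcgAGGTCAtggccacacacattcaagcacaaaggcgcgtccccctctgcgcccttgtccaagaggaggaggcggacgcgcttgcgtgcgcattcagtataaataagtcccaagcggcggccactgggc
Nr5a2: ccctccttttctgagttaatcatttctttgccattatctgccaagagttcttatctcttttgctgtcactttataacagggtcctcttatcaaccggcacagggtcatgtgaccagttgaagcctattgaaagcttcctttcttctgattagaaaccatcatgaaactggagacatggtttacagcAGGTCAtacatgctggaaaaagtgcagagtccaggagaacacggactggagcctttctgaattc
Esrrb: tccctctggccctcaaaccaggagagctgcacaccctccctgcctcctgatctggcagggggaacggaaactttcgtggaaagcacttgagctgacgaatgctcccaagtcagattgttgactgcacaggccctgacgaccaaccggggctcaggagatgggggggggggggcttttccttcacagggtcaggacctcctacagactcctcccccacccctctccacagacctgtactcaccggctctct
AGGTCA began 126 bases before the start of Nr0b1 and 64 bases before the first start of Nr5a2. The second Nr5a2 window did not hold it, nor did either Esrrb window. A window of Nr6a1 held it at 2 places on the opposite strand, at 91 and 45 bases before the start, the first as AAGGTCA. TCAAGGTCA was in none of the 15 windows. CTTTGAT occurred in the window of Nr2f2 and CTTTGAA in 1 of Esrrg. Of all 32851 windows of this length, 14.0% held AGGTCA, 4.08% AAGGTCA, 0.387% TCAAGGTCA, 3.21% CTTTGAT and 4.46% CTTTGAA, so these matches are descriptions of the sequence and no evidence of binding.

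**Figure D2:**
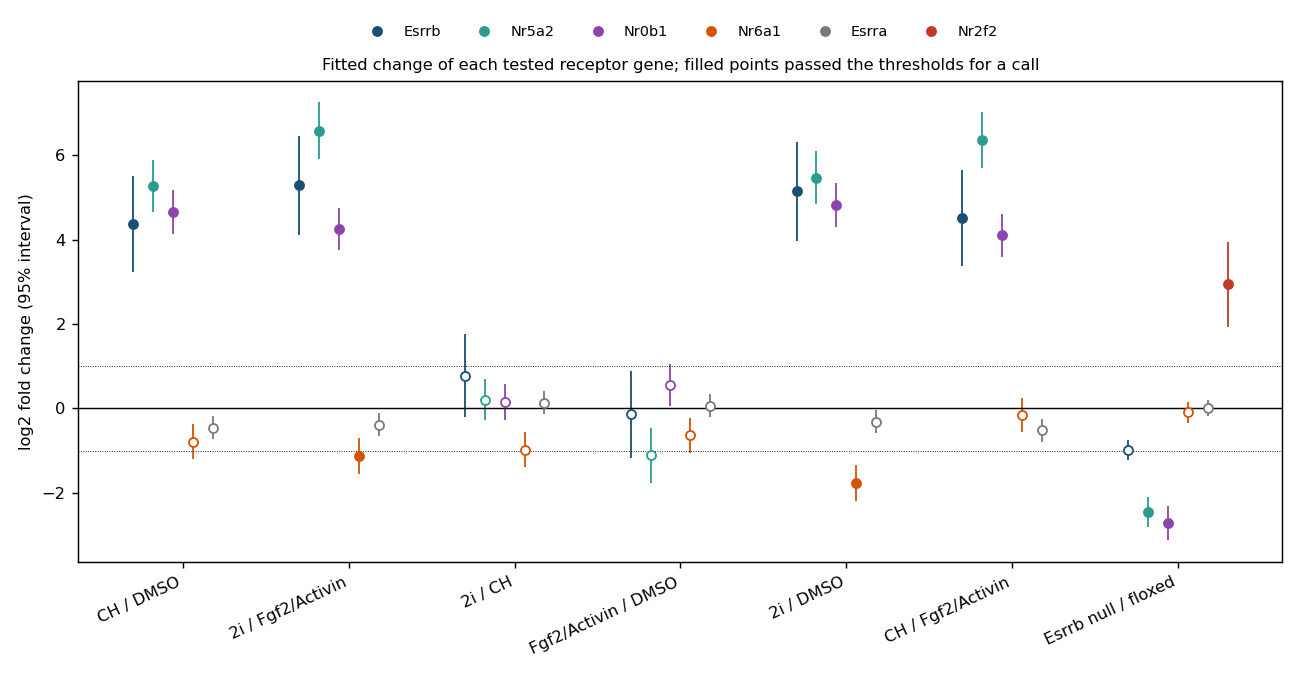
Fitted log2 fold change of the 6 receptor genes that were tested, in the 7 comparisons, with 95% intervals. Filled points passed both thresholds for a call, the dotted lines mark a log2 fold change of 1 in either direction, and Nr2f2 was tested only between Esrrb null and Esrrb floxed samples. Esrrb, Nr5a2 and Nr0b1 lie above 4 wherever a group with CH is set against one without it.

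Nr6a1 (ENSMUSG00000063972), a repressor of Pou5f1, lies on chromosome 2 at 38723370 to 38927688, on the minus strand. It had 125, 131 and 163 CPM in DMSO, 81.7, 94.2 and 95.1 CPM in Fgf2/Activin, 57.8, 94.7 and 90.9 CPM in CH and 32.9, 45.6 and 45.3 CPM in 2i. All 2i samples were below all others, and all DMSO samples above them. It fell by 1.76 between 2i and DMSO (SE 0.19, adjusted p = 2.42e-05) and by 1.13 on the log2 scale between 2i and Fgf2/Activin (SE 0.19, adjusted p = 5.03e-04, edgeR's quasi-likelihood test). The latter was -0.99, under the minimum, without 2i replicate 1. Between CH and DMSO it was -0.79 (adjusted p = 0.00612, edgeR's quasi-likelihood test), too small for a call. Between 2i and CH it was -0.97 (adjusted p = 0.0109), and it was called, at -1.17, without CH replicate 1, which had the lowest level in its group, and, at -1.03, with replicates 2 and 3 alone. CH and Fgf2/Activin overlapped, with a difference of -0.15 and an interval of -0.57 to 0.26. In the Esrrb fl/fl cultures Nr6a1 had 64.8, 88.2 and 85.1 CPM in floxed and 72.2, 78.4 and 73.0 CPM in null samples, which overlapped, and the difference of -0.09 had an interval of -0.34 to 0.15.

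In CH and in 2i, replicate 1 was the lowest sample for Nr0b1, Nr5a2 and Nr6a1 alike, and the highest for Esrrb and Esrra. Among Esrrb floxed samples, replicate 1 was the highest for Esrrb, Nr0b1 and Nr5a2 and the lowest for Nr6a1. These orders were seen after the values were known, and replicate 1 differed from the others across all genes, as given above.

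Between 2i and CH, none of the 5 genes tested was called by edgeR's quasi-likelihood test and none by DESeq2, and 1, Nr6a1, had an unadjusted p under 0.05. Of all genes, 1.99% or 326 were called, and 672 when replicate numbers were fitted as a block. Between Fgf2/Activin and DMSO, edgeR's quasi-likelihood test again called 0 of 5, DESeq2 called 1, Nr5a2, and 3 had an unadjusted p under 0.05. Here 1.25% of all genes or 205 were called, and 424 with the block.

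The paralogues did not follow Esrrb. Esrra (ENSMUSG00000024955), a receptor known for control of mitochondrial genes, lies on chromosome 19 at 6910977 to 6921813, on the minus strand. It had 22.6, 20.5 and 20.6 CPM in DMSO, 23.4, 21.1 and 22.1 CPM in Fgf2/Activin, 18.6, 14.5 and 13.5 CPM in CH and 18.4, 16.4 and 16.3 CPM in 2i. Samples with CH were all below those without it. The difference was -0.45 between CH and DMSO (adjusted p = 0.0129) and -0.52 between CH and Fgf2/Activin (adjusted p = 0.0062 by edgeR's quasi-likelihood test), and neither was called. Esrra was at 14.2, 15.2 and 14.5 CPM in Esrrb floxed and 14.3, 14.7 and 15.2 CPM in Esrrb null samples. The difference there was 0.01, with an interval of -0.19 to 0.21. Its exons overlap Mir6990 and, on the other strand, Trmt112 over 3.74% of their length, and the counting did not use strand, so a small part of these reads cannot be assigned.

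Esrrg (ENSMUSG00000026610), on the plus strand of chromosome 1 at 187608791 to 188214885, did not pass the filter in either fit. It had 4, 8 and 6 counts in DMSO, 5, 8 and 8 in Fgf2/Activin, 1, 0 and 1 in CH, and 0 in each 2i sample. In the wild-type cultures, every sample without CH had more Esrrg reads than any sample with it. Counts summed over the group and scaled to library size were 8.02-fold lower in CH than in DMSO (95% exact interval for counting error 1.92 to 71.2) and 9.65-fold lower than in Fgf2/Activin (2.36 to 84.9). For 2i they were at least 2.05-fold lower than in DMSO and at least 2.41-fold lower than in Fgf2/Activin, against a floor of 3 counts in each library. In edgeR's quasi-likelihood test without the filter the adjusted p was 0.00208 and 0.00115 for these comparisons of 2i, and 0.0262 and 0.0135 for those of CH with DMSO and Fgf2/Activin, which missed the threshold. DESeq2 called Esrrg in the comparisons of 2i. Esrrb floxed samples had no Esrrg count, and Esrrb null samples had 1 each, which is within the floor. Summed markers of neural cells moved in the same direction in the wild-type cultures. They were at 118 to 175 CPM in DMSO, 130 to 135 in Fgf2/Activin, 22.8 to 49.3 in CH and 17.9 to 49.7 in 2i. Primitive endoderm markers did so too, at 26.63 to 41.7 CPM in DMSO and 3.569 to 4.343 in 2i. Fibroblast or feeder markers also did, at 22.06 to 54.84 CPM in DMSO and 4.687 to 4.896 in 2i. In DMSO the neural sum came mostly from Nes and Tubb3, at 74.9 and 64.7 CPM. Col4a1, at 23.9 CPM, led the primitive endoderm markers, and Thy1, at 27.2 CPM, the fibroblast or feeder markers. Of the 8 neural markers, 3 had a mean of at least 1 CPM in DMSO, 2 in Fgf2/Activin, 3 in CH and 3 in 2i. For primitive endoderm these were 4 in DMSO and 1 in 2i, and for fibroblasts or feeders 3 and 2. Markers of trophoblast and of primitive streak and mesoderm were higher in CH than in DMSO, and those of pluripotent cells overlapped. The part of these markers in the result was not tested. In a bulk sample, fewer cells with a transcript and less of it per cell cannot be told apart.

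Levels of different genes were compared per kilobase of exon, with all annotated exons of a gene merged. This length was 6047 bases for Esrrb and 4387 for Esrra, whose longest transcripts have 4300 and 2489 bases. Shares, ratios and ranks between genes depend on this choice. On this scale Esrrb made up 95.7 to 96.1% of the sum of the 3 oestrogen-related receptors in 2i and 93.4 to 94.4% in CH. In DMSO its share was 19.4 to 49.1% and in Fgf2/Activin 23.1 to 39.8%, and Esrra held nearly all the rest. Esrrb was thus below Esrra in all 6 samples without CH, at 0.242 to 0.969 of its level, and above it by 14.2-fold to 24.4-fold in the 6 with CH. Esrrg never exceeded 0.678%. The sum of the 3 genes was 94.8 ± 3.18 CPM per kb in 2i, 56.6 ± 6.93 in CH, 7.41 ± 2.39 in DMSO and 7.42 ± 1.29 in Fgf2/Activin (SD, n = 3 each). In Esrrb floxed samples Esrrb held 84.02 to 87.9% and in Esrrb null samples 74.0 to 75.9%, which counts the remaining Esrrb transcripts of the null cells whether or not they encode the protein. The sums there were 23.3 ± 3.06 and 13.4 ± 0.444 CPM per kb (SD, n = 3 each).

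**Figure D3:**
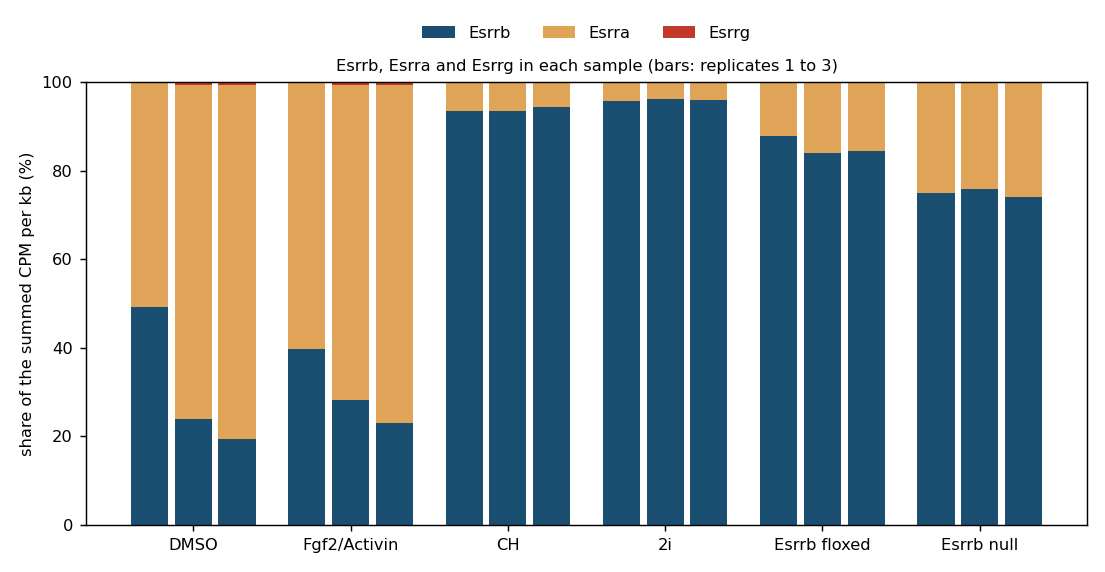
Share of Esrrb, Esrra and Esrrg in their summed CPM per kb of exon (percent), 1 bar per sample. Esrrb holds at least 93.4% in every CH and 2i sample and at most 49.1% in every DMSO and Fgf2/Activin sample, and Esrra holds nearly all of the remainder.

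Nr2f2 (ENSMUSG00000030551), a COUP transcription factor, lies on chromosome 7 at 70351944 to 70366735, on the minus strand, and rose in Esrrb null samples. It had 1, 3 and 4 counts in Esrrb floxed and 19, 31 and 19 counts in Esrrb null samples, or 0.138 ± 0.0781 and 1.11 ± 0.327 CPM (SD, n = 3 each). The groups did not overlap. The rise was 2.94 (SE 0.45, adjusted p = 5.56e-04, edgeR's quasi-likelihood test), from a level near the limit of detection to a low one. Nr2f2 passed the filter on low counts only through the null samples, so this p-value is no support for the rise. Its exons overlap B130024G19Rik on the other strand over 7.46% of their length, and without strand these reads cannot be told apart. The summed levels of markers of some other cell types rose with it. In null samples the 8 markers of primitive streak and mesoderm summed to 441 to 565 CPM against 85.5 to 106 CPM in floxed samples, led by T at 402 CPM. The 8 of primitive endoderm summed to 66.8 to 82.9 against 16.1 to 18 CPM, nearly all from Col4a1 at 66.0 CPM, and the 8 of neural cells to 213 to 217 against 49.5 to 53.3 CPM, nearly all from Nes at 207 CPM. In null samples 5, 4 and 2 of these 8 markers had a mean of at least 1 CPM, against 4, 2 and 4 in floxed samples. None of the markers in these lists was at 0 in every null sample. Tubb3, also a neural marker, fell from 17.1 CPM in floxed to 5.80 CPM in null samples. The 8 markers of fibroblasts or feeders fell too, from a summed 18.5 to 26.8 CPM in floxed to 10.85 to 13.87 CPM in null samples. The part of these markers in the rise of Nr2f2 was not tested.

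In the wild-type cultures Nr2f2 did not pass the filter. It had 5, 0 and 1 counts in DMSO, 1, 2 and 0 in Fgf2/Activin, 7, 6 and 3 in CH and 7, 5 and 7 in 2i. Summed over the group it was 6.19-fold higher in 2i than in Fgf2/Activin (95% exact interval for counting error 1.82 to 32.6) and 5.80-fold higher in CH than in Fgf2/Activin (1.66 to 31.1). Neither passed the threshold when the filter was left out, with adjusted p of 0.0394 and 0.0618 in edgeR's quasi-likelihood test. Nr2f1 (ENSMUSG00000069171), the other COUP transcription factor, on the minus strand of chromosome 13 at 78188973 to 78199757, had at most 5 counts in any sample. It had 2, 3 and 4 counts in Esrrb null and 1, 1 and 0 in Esrrb floxed samples, a ratio of 4.16 with an interval of 0.861 to 39.6 for counting error. A change of Nr2f1 was not detectable at this depth.

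Among all 49 nuclear receptor genes, ranked by mean CPM per kb, Esrrb was 1st in 2i at 90.9 and in CH at 53.1, Nr0b1 was 2nd in both at 42.9 and 38.6, and Nr5a2 was 4th in both at 27.5 and 23.8. In DMSO they were 16th, 18th and 23rd, at 2.54, 1.52 and 0.615 CPM per kb, and the highest receptor was Rarg, a retinoic acid receptor, at 44.4. Nr6a1 was 4th in DMSO at 12.9 and 15th in 2i at 3.81, where Esrra was 14th at 3.88. In Esrrb floxed samples Nr5a2, Nr0b1 and Esrrb were 3rd, 4th and 5th, at 29.3, 20.9 and 19.9 CPM per kb. In Esrrb null samples Esrrb was 5th at 10.1, Nr5a2 11th at 5.36 and Nr0b1 16th at 3.20. Esr1, the oestrogen receptor, had 1454 to 2208 counts in every Esrrb fl/fl sample and at most 40 in any wild-type sample. MerCreMer contains parts of the mouse oestrogen receptor, and whether its transcript gave these reads was not tested.

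**Figure D4:**
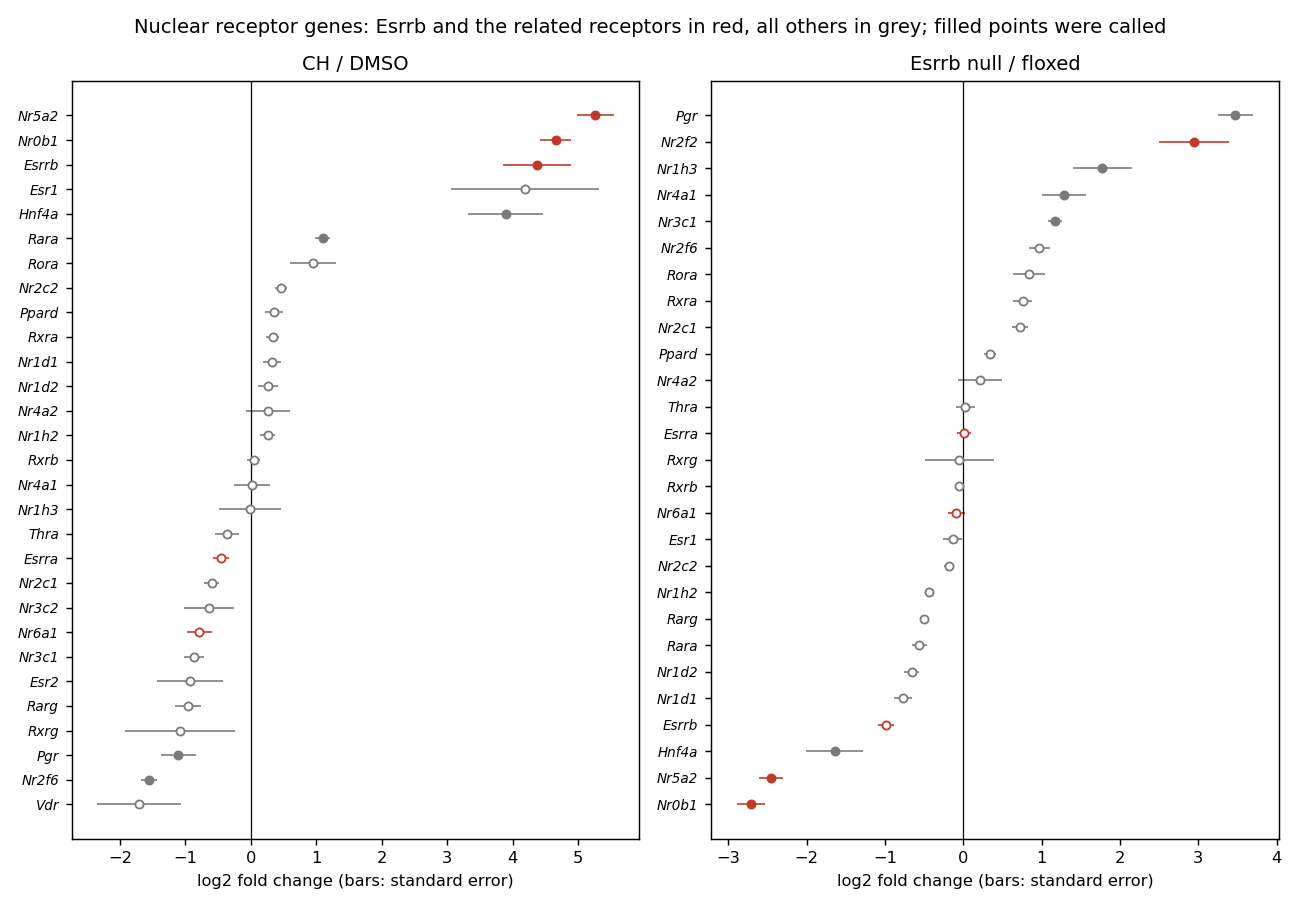
Log2 fold change, with standard error, of nuclear receptor genes tested between CH and DMSO (left) and between Esrrb null and Esrrb floxed samples (right). Esrrb and the related receptors are in red, other receptors in grey, and filled points were called. Of the genes drawn, Nr5a2, Nr0b1 and Esrrb have the 3 highest values on the left, and Nr5a2 and Nr0b1 the 2 lowest on the right.

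Of the 41 other nuclear receptors, 26 were tested in the wild-type cultures. Between CH and DMSO, 2 were called higher and 4 lower, 23.1% against 17.7% of all genes, with a median of 0.00 over the list and -0.002 over all genes. Nr2f6, a relative of the COUP factors, was among those lower, at -1.56. Between 2i and Fgf2/Activin, 2 were called higher and 7 lower, 34.6% against 23.5% of all genes, of which 9.13% were higher and 14.4% lower, with a median of -0.22 against 0.002. Between Esrrb null and Esrrb floxed samples 22 were tested, and 5 were called higher and 1 lower. That was 27.3% against 16.7% of all genes, of which 12.8% were higher and 3.87% lower. The largest change was that of Pgr, the progesterone receptor, at 3.47 (0.797 ± 0.210 to 8.89 ± 1.44 CPM, SD, n = 3 each). None was called between 2i and CH or between Fgf2/Activin and DMSO by edgeR's quasi-likelihood test, where 8 and 5 had an unadjusted p under 0.05 and DESeq2 called 2 and 0.

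Of 14 coregulators of nuclear receptors, 13 were tested. Between CH and DMSO, Nrip1, a corepressor, was the 1 called, higher by 1.54 in CH, a share of 7.69% against 17.7% of all genes. Between 2i and Fgf2/Activin 3 were called, all higher in 2i, with Nrip1 at 2.12 and the coactivators Ncoa1 and Ncoa6 at 1.24 and 1.21, and their share of 23.1% was close to the 23.5% of all genes. Between Esrrb null and floxed samples edgeR's quasi-likelihood test and DESeq2 each called 0, and 8 had an unadjusted p under 0.05. The 16 mitochondrial and fatty acid oxidation genes known as targets of oestrogen-related receptors had a median of 0.10 between CH and DMSO, and 0 were called by edgeR's quasi-likelihood test or DESeq2, with 10 at an unadjusted p under 0.05. Between 2i and Fgf2/Activin 2 of the 16 were called higher, Pdk4, a kinase that inhibits pyruvate dehydrogenase, at 1.98 and Acadm, an enzyme of fatty acid oxidation, at 1.16, 12.5% against 23.5% of all genes, with a median of 0.41 against 0.002. Between Esrrb null and floxed samples, Pdk4 was the 1 called of 15 tested, lower at -1.69. That was 6.67% of the list, against 3.87% of all genes called lower and 16.7% called in either direction. The list's median was -0.40 against 0.002, and 13 of the 15 had an unadjusted p under 0.05 in edgeR's quasi-likelihood test. Counts at an unadjusted p under 0.05, here and above, are given without the share of all genes and are no result about a list. Without a minimum fold change, 4750 of 16413 genes were called between CH and DMSO, and 6621 of 14893 between null and floxed samples.

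Of 12 regulators and partners of Esrrb, 5 were called higher and 1 lower between CH and DMSO, 50% against 17.7% of all genes. Klf4 and Tfcp2l1, factors of the naive network, rose by 4.13 and 4.08 on the log2 scale. Tcf7l1, the repressor downstream of which Esrrb is induced, was at -1.96. In Esrrb null against floxed samples 2 of the 12 were called, both lower, Sox2 at -2.41 and Klf4 at -1.83. That was 16.7% of the list, against 3.87% of all genes called lower and 16.7% called in either direction. Among the genes whose profile over the 18 samples was nearest to that of Esrrb, by the root mean square difference of centred log2(CPM + 1) over 13324 genes, were Tfcp2l1 at 0.208, Klf4 at 0.496, Mymx at 0.618 and Tcl1 at 0.619, where the root mean square of Esrrb itself was 2.09. The nearest were Mymx at 0.333 and Tfap2a at 0.477 for Nr0b1, Pdgfa at 0.654 and Klf2 at 0.723 for Nr5a2, Rarg at 0.247 for Nr6a1 and Pias1 at 0.0690 for Esrra, whose own root mean squares were 1.84, 2.48, 0.547 and 0.248. These distances describe likeness over samples that share cell lines and media.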

How the data were processed

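RNA sequencing of poly(A) RNA from 18 samples was used, in 6 groups of 3 taken from the labels. Per the methods of the study, reads were mapped by the authors to mm10 (TopHat2) and assigned to Ensembl genes of GRCm38 with HTSeq without regard to strand, although the library kit was directional. The deposited values are raw counts, neither normalised nor filtered, and the Ensembl release is not given in the sources used here. The 8 genes and all lists were chosen with earlier results of these data known.

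Counts were tested with edgeR 4.0.16 in R 4.3.3 (TMM, filterByExpr, glmQLFit and glmQLFTest), the 12 wild-type samples in one fit and the 6 Esrrb fl/fl samples in another, after the procedure had been tested on simulated data. Thresholds were those in the methods of the study. Group means are of CPM scaled within each fit. Named genes were all 8 receptors and at most 3 called genes per list and comparison with a mean of at least 1 CPM, and not all such genes are named or drawn, since some are not reported here. Alternatives were the replicate block, DESeq2 1.42.0 (size factors or Wald test), no filter, no minimum fold change, a fit of the 6 samples compared, TMM over all 18 samples, each replicate left out and, chosen after seeing the data, replicates 2 and 3 alone. Ratios of summed low counts have exact 95% binomial intervals, which like the floor of 3 counts cover counting error only.

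Replicate numbers are given by the labels. Correlations were taken between the samples' deviations from their group means, over 9138 genes. Same-numbered samples had 0.41 to 0.844 in the wild-type cultures (18 pairs) and 0.405 to 0.584 in the Esrrb fl/fl cultures (3 pairs). Differently numbered samples had means of -0.227 and -0.187, and ranged from -0.815 to 0.754 and from -0.528 to 0.474. These ranges overlap those of same-numbered samples, so not every replicate number is shown to mark a pair. The study did not use replicate numbers as a block.

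Positions and exon overlaps came from GENCODE's annotation of GRCm38, in which 49326 identifiers were found, and promoter sequences from RefSeq (GRCm38.p6). Sequence shared with other genes was sought with blastn 2.17.0 at a minimum of 75 bases and 95% identity. It covered 3.21% of the longest Esrra transcript and 3.27% of that of Nr2f1, and 0% of those of the other 6 genes.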

Additional observations from a re-analysis of the deposited data

How the results depend on the processing

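Values of the receptor genes were recomputed under 462 combinations of value and alternative, of which 440 kept direction and side of the thresholds, 11 reversed, 10 passed a threshold that had been missed and 1 no longer passed. With the replicate block no call of a receptor gene changed: 3, 4, 0, 0, 4, 3 and 3 genes were called in the 7 comparisons, and Esrrb was at 4.54 between CH and DMSO and at -0.98 between Esrrb null and floxed samples. All 11 reversals were of differences between -0.15 and 0.21, and their cause was not tested. For Esrra in null against floxed samples the value was -0.00314 with DESeq2's size factors and -0.005 with DESeq2's test.

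With a replicate left out, the ranges were -0.0133 to 0.0321 for Esrra between null and floxed samples, -0.58 to 0.82 for Esrrb between Fgf2/Activin and DMSO, -0.0145 to 0.33 for Nr0b1 and -0.00897 to 0.39 for Nr5a2 between 2i and CH, and -0.28 to 0.0398 for Nr6a1 between CH and Fgf2/Activin. For Esrrb between null and floxed samples the range was -1.06 to -0.85, the value was -1.001 in DESeq2 and called, and without a minimum fold change -0.99 was called. The receptors called between 2i and CH numbered 0 to 1 with a replicate left out, and those between Fgf2/Activin and DMSO numbered 1 in DESeq2's test. With replicates 2 and 3 alone, 1 was called between 2i and CH, and Esrrb between Fgf2/Activin and DMSO was 0.38.

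Over all genes the calls ranged over the alternatives from 2061 to 4750 between CH and DMSO (2907 as reported), 3347 to 6193 between 2i and Fgf2/Activin (3857), 100 to 768 between 2i and CH (326), 87 to 499 between Fgf2/Activin and DMSO (205), 3054 to 5821 between 2i and DMSO (3668), 2465 to 4995 between CH and Fgf2/Activin (2984) and 2183 to 6621 between null and floxed samples (2485). The highest was without a minimum fold change in the 5 comparisons of over 2000 calls and with replicates 2 and 3 alone in the other two, where the block gave 672 and 424. Without any 1 of the 2i replicates or CH replicate 2 the calls between 2i and CH were 144 to 208, and without DMSO replicate 3 or Fgf2/Activin replicate 2 or 3 those between Fgf2/Activin and DMSO were 112 to 121. Scaling all 18 samples together multiplied group means by 0.983 to 1.01. Depth limits Esrrg, Nr2f1 and, in wild-type cultures, Nr2f2, where 3 counts are the floor.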
